A study of Mus musculus with 3 samples.

Results

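The Tcl1 oncogene family of the mouse, made of Tcl1, Tcl1b1, Tcl1b2, Tcl1b3, Tcl1b4 and Tcl1b5, was examined in 2-cell embryos by taking every probe that the platform annotation names for these genes. All 6 genes were on the array, with 9 of its 25697 probes and as 6 of its 16593 genes. Tcl1, Tcl1b2 and Tcl1b3 had 2 probes each and the other 3 genes had 1. RNA was read on 3 Illumina mouse-8 BeadChips, a bead array with a fixed set of transcript probes. 2-cell NSN embryos, hybridised to 2 of the arrays (NSN-a, NSN-b), came from oocytes in which no ring of heterochromatin surrounds the nucleolus and which the labels call incompetent. 2-cell ctrl embryos, hybridised to 1 array, came from eggs that the labels call competent. The embryos of both groups carry the strain label F1B6C3H and were taken 26 hr after insemination with sperm of males aged 5 months. The NSN oocytes were isolated from the ovaries of PMSG-injected females aged 4 to 6 weeks and matured in culture, whereas the control eggs were ovulated, so that oocyte type and culture cannot be told apart here. The sources used here do not say how many embryos each array held or whether NSN-a and NSN-b came from separate pools, and the spread between them may be technical.

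TCL1 proteins are small beta-barrel proteins that bind the pleckstrin homology domain of the kinase AKT and enhance its activity. Human TCL1A was found through chromosomal translocations that activate it in T-cell leukaemia. In the mouse, Tcl1 transcripts are known from oocytes, early embryos and embryonic stem cells, where the gene lies downstream of Oct4 and supports self-renewal, and embryos of Tcl1-deficient females cleave poorly. The Tcl1b genes are relatives of Tcl1 that are likewise known from oocytes and early embryos.

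The 6 genes lie side by side on chromosome 12, between positions 105147019 and 105222737 of GRCm38.p6 (RefSeq), a span of 75.7 kb in which RefSeq places 0 other genes. From the low to the high end the order is Tcl1b2, Tcl1b1, Tcl1b5, Tcl1b3, Tcl1b4 and Tcl1. The 5 Tcl1b genes are transcribed in one direction and Tcl1 in the other, towards them. Tcl1 covers 105216753 to 105222737 and Tcl1b3 covers 105191045 to 105195399. All 6 genes have a start-site window of 300 bases in RefSeq, 250 before the start and 50 after it. The 5 windows of the Tcl1b genes are near copies of each other, with an identity of 90.9% to 98.6% over 206 to 287 aligned bases in 10 pairs, the closest pair being Tcl1b2 and Tcl1b4. The window of Tcl1 aligned with those of the Tcl1b genes over at most 75 bases. The windows of the genes with a reading above background, Tcl1 and Tcl1b3, are printed below with that of Tcl1b4, whose control reading came nearest to the limit. They lie at chr12:105222688-105222987 (minus strand), chr12:105190795-105191094 (plus strand) and chr12:105202145-105202444 (plus strand), are written 5′ to 3′, and have the E-box CANNTG in capitals.
Tcl1: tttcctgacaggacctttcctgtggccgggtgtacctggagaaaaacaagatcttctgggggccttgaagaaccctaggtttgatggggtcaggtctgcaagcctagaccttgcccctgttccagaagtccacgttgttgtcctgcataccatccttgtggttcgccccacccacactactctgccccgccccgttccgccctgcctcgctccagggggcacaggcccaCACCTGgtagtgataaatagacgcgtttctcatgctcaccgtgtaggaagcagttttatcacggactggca
Tcl1b3: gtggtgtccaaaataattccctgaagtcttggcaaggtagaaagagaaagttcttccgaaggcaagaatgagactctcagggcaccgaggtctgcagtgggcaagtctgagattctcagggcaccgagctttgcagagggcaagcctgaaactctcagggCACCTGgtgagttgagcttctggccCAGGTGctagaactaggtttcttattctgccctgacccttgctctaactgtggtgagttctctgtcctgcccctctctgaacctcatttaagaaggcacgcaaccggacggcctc
Tcl1b4: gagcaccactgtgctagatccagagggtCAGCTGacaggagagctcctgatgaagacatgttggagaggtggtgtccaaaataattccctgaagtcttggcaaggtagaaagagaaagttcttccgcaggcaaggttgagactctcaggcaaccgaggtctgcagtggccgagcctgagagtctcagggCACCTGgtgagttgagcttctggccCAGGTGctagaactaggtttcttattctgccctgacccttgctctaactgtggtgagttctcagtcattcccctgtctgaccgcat
The E-box, the kind of site bound by basic helix-loop-helix factors such as the oocyte factor FIGLA, was present in all 6 windows (1 copy in Tcl1, 2 in Tcl1b3 and 3 in each of the others), against 72.1% of 27025 windows of the same length, 1 a gene, so its presence is common. On either strand 0 of the 6 windows held the octamer ATGCAAAT, read by POU factors such as OCT4 (1.75% of all windows), the homeodomain site TAATTG (8.15%) or TATAAA (14.2%), and only that of Tcl1b5 held CCAAT (37.9%). The matches of different motifs did not overlap. These matches describe the letters of the windows only.

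**Figure D1:**
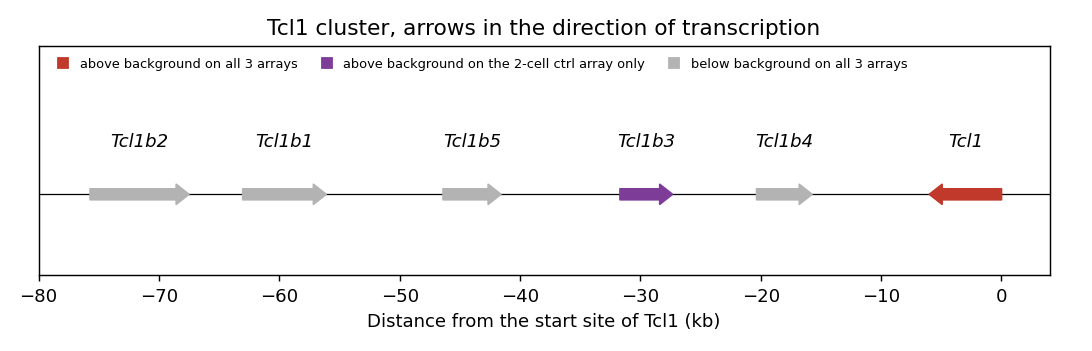
Map of the Tcl1 cluster, drawn to scale as distance from the start site of Tcl1 in kb, with an arrow for each of the 6 genes in its direction of transcription. Red marks the gene above background on all 3 arrays (Tcl1), purple the gene above it on the 2-cell ctrl array only (Tcl1b3) and grey the 4 genes below it on every array.

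The deposited values are background-subtracted intensities on a linear scale and are called signals here. A probe was taken as above background from the lowest signal with a detection p value (against negative control beads) of 0.01, a limit that was 8.57 on NSN-a and 6.10 on the 2-cell ctrl array. The limit of NSN-b, for which p values were not at hand, was taken as 8.28, an assumed value. 193 probes (0.751%) were above background on NSN-a, 203 (0.790%) on NSN-b and 1086 (4.23%) on the 2-cell ctrl array. A gene was called when it was above background on both 2-cell NSN arrays or in the control and at least 1.5-fold apart, with signals under a limit set to it and the mean of both 2-cell NSN arrays taken on the log2 scale. By this rule 950 of the 16593 genes (5.73%) were above background, and of these 44.4% were lower and 8.32% higher in 2-cell NSN embryos (422 and 79 genes). The split was 248 lower and 119 higher after normexp correction and quantile normalization, 554 and 29 with log2(signal + 16), and 573 and 33 once NSN-a and NSN-b were rescaled so that their median ratio to the control was 1 over the 136 probes above background on all 3 arrays. Of 22 egg and early embryo markers on the array, 10 were above background. In 2-cell NSN embryos 6 of these were lower and 0 higher, and the summed signal of all 22 was 60.4 and 64.0 on the 2-cell NSN arrays and 399 on the control array. Bmp15 (102), Oosp1 (94.0) and Omt2b (93.9) made up most of the control sum, which therefore mainly describes these bright readings. None of 10 cumulus and granulosa, 6 sperm and testis and 7 lymphoid markers was above background on any array, their highest signals being 3.56, 3.36 and 2.16.

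Of the 6 family genes, 2 were above background, Tcl1 and Tcl1b3, and both were lower in 2-cell NSN embryos on the deposited scale, whereas with normexp correction and quantile normalization only Tcl1b3 was (1 gene). They were read by 2 of the 9 family probes, where 43.7% of all 1106 probes above background were lower and 7.69% higher. Against 44.4% of all genes above background, this count of 2 is too small to say anything of the family as a whole. The methods state a set amount of mRNA as the input for labelling, but no number of embryos for each array. With a set input, a lower signal need not reflect RNA per embryo or the number of embryos, and their effects cannot be told apart. The other 4 genes were below background on all 3 arrays and have no fold.

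Tcl1, the AKT coactivator, was measured on every array at one of its probes (ILMN_2985612). Its signal was 46.2 on NSN-a and 44.8 on NSN-b, against 228 on the 2-cell ctrl array. Both 2-cell NSN readings lay close together and far under the control reading, and each stood well clear of its limit (5.39 and 5.41 times it, and 37.3 times in the control). Tcl1 was 5.01-fold lower in 2-cell NSN embryos, 4.93-fold on NSN-a and 5.08-fold on NSN-b. The 2-cell NSN arrays differed by 0.04 on the log2 scale at this probe, against a median of 0.15 over the 156 probes above background on both. The difference between the groups was therefore larger than the spread between the 2-cell NSN arrays, whereas the spread of the control is unknown with 1 array. In limma, over the 136 probes above background on all 3 arrays, the log2 difference was -2.32 (standard error 0.09, adjusted p = 0.000142 by Benjamini-Hochberg), with 1 residual degree of freedom that comes from the 2-cell NSN arrays and the control assumed to vary like them. Of the 124 genes above background on all 3 arrays, 24.2% were called lower. In the limma fit 22.8% of the probes were lower and 43.4% higher in 2-cell NSN embryos, and Tcl1 had the 17th largest decrease (rank 17 of 136), or -2.83 relative to the median log2 difference of 0.51. The 136 probes had to pass limits that are higher on the 2-cell NSN arrays (8.57 and 8.28) than in the control (6.10), which favours probes bright in 2-cell NSN embryos. The shares lower and higher, the median of 0.51 and the rank and difference of Tcl1 set against them carry this selection. An exact permutation test of 1 array against 2 cannot give a p value under 0.333.

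The call of Tcl1 depended on how the arrays were scaled. With normexp correction and quantile normalization its log2 difference was 0.015, with an adjusted p of 0.773 in limma. In this setting each reading is replaced according to its rank on its array, and that of Tcl1 was nearly the same on all of them, at 20 and 17 on the 2-cell NSN arrays and 19 on the control array out of 25697 probes. The brightest readings were lower as a body in 2-cell NSN embryos: the highest signal, that of Rpl23, was 348 and 348 on the 2-cell NSN arrays and 2113 on the control array, and all 57 probes with a control signal of at least 100 were at least 1.5-fold lower (100%), 53 of them at least 5-fold (93%). These probes were chosen by their control reading, which favours decreases. 17 of them were measured on all 3 arrays, with log2 differences of -4.93 to -1.69 and a median of -2.73, and 12 of the 17 had a larger decrease than Tcl1. Tcl1 thus had a lower signal in 2-cell NSN embryos on the deposited scale while keeping its place among the brightest readings. Whether this lower signal reflects the embryos, the amount of RNA or its amplification was not tested.

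**Figure D2:**
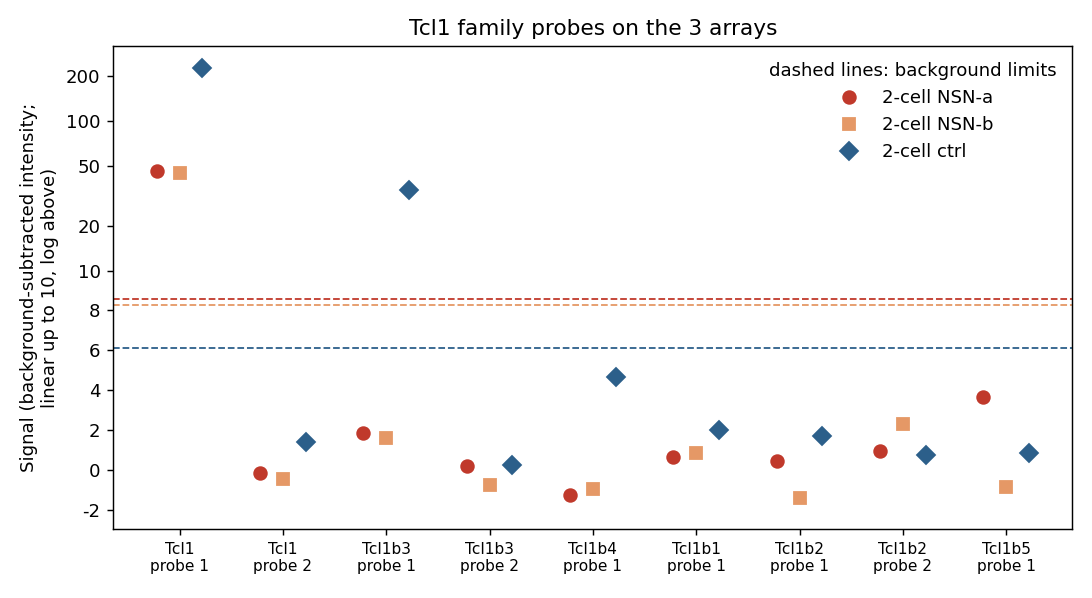
Signal of the 9 Tcl1 family probes (x axis) on NSN-a, NSN-b and the 2-cell ctrl array, with dashed lines at the background limits of the arrays (8.57, 8.28 and 6.10) and a y axis that is linear up to 10 and logarithmic above. Only the first probe of Tcl1 (46.2, 44.8 and 228) and the control reading of the first probe of Tcl1b3 (35.0) lie above the limits.

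The other probe of Tcl1 (ILMN_2638171), annotated to the same accession, gave signals of -0.140 and -0.455 on the 2-cell NSN arrays and 1.37 on the control array, all below background. It can therefore neither bear out nor oppose the decrease at the first probe. Such a disagreement was frequent on this array. Of 209 genes with 2 probes and at least 1 of them above background in the control, 187 (89.5%) had only 1 above it. This share covers probes of any brightness above the limit, and genes with a probe as bright as that of Tcl1 were not counted apart.

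Tcl1b3, a Tcl1b gene of the middle of the cluster, was above background in the control only. Its probe ILMN_2921240 gave signals of 1.85 on NSN-a and 1.60 on NSN-b, against 35.0 on the 2-cell ctrl array, which is 5.73 times the control limit. Both 2-cell NSN readings lay near 0 and under the single control reading, through which alone the probe passed the limit. Over all 25697 probes the control was above both 2-cell NSN arrays in 35.6%. For Tcl1b3 the decrease in 2-cell NSN embryos was at least 4.15-fold, where the bound rests on the limits of the 2-cell NSN arrays and not on their readings. With the lower limits at a detection p value of 0.05 (3.30, 3.18 and 2.94 in the same order) the bound was 10.8-fold, and with normexp and quantile, which sets no floor, the gene was 1.72-fold lower. A gene above background through the control alone can hardly be called other than lower: of 772 genes read in the control alone, 50% were called lower, and the others did not reach 1.5-fold. The other probe of Tcl1b3 (ILMN_2739807) gave 0.165 and -0.791 on the 2-cell NSN arrays and 0.234 on the control array, below background throughout. As the files hold no probe sequences and the Tcl1b genes are near copies of each other at their starts, how far the probe for Tcl1b3 also reads its neighbours was not tested.

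**Figure D3:**
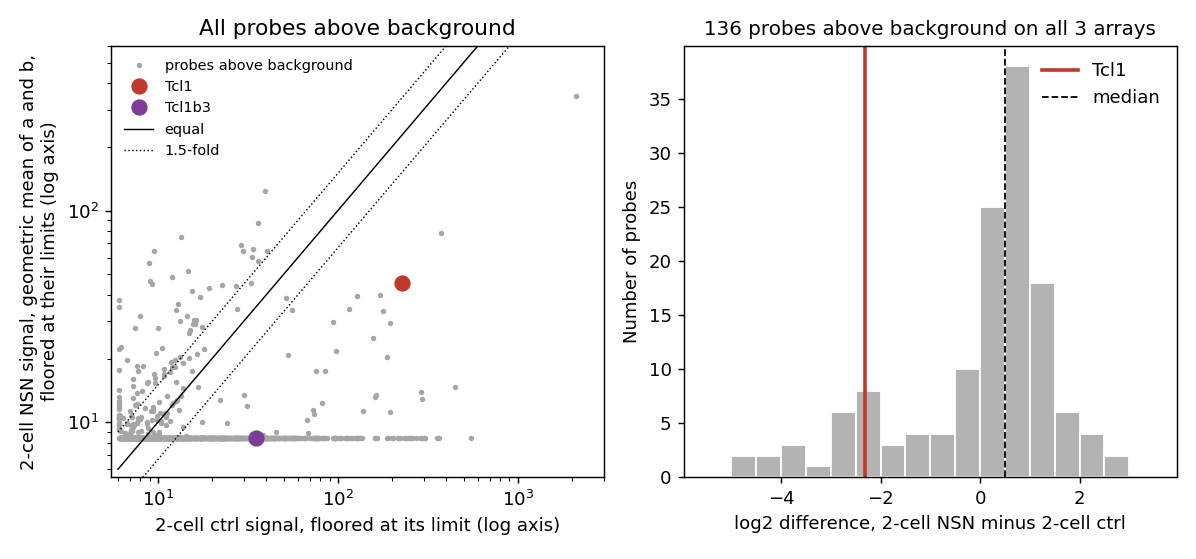
Left, signal in 2-cell NSN embryos (geometric mean of both arrays, y axis) against the 2-cell ctrl signal (x axis) for all 1106 probes above background, both floored at the limits and on log axes, with solid and dotted lines at equality and at 1.5-fold. Right, number of probes by log2 difference (2-cell NSN minus 2-cell ctrl) for the 136 probes above background on all 3 arrays, where Tcl1 lies at -2.32 and the median at 0.51.

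The remaining Tcl1b genes were below the limits on all 3 arrays. Tcl1b4, next to Tcl1 in the cluster, had signals of -1.26 and -0.947 on the 2-cell NSN arrays and 4.64 on the 2-cell ctrl array. The control reading was 0.760 times the limit and above that at a detection p value of 0.05, where Tcl1b4 would have a decrease of at least 1.43-fold, short of the threshold. Tcl1b1 had signals of 0.657 and 0.816 on the 2-cell NSN arrays and 1.98 in the control. Tcl1b2 had 0.461 and -1.42 on the 2-cell NSN arrays and 1.72 in the control at one probe, and 0.953 and 2.29 against 0.739 at the other, so that its probes point in opposite directions. Tcl1b5 had its highest signal on NSN-a (3.65), with -0.884 on NSN-b and 0.839 in the control. The 2-cell NSN arrays therefore disagree on Tcl1b5, and only the reading of NSN-a passes the limit at a detection p value of 0.05. Among the 7 family probes below background on all arrays the control was above both 2-cell NSN arrays in 5, against 33.4% of all 24545 such probes. These readings are under the limits, and the count is given as a description only. Mtcp1, the relative of Tcl1 on the X chromosome, was also below background, with 1.25 and 1.35 on the 2-cell NSN arrays and -0.881 in the control.

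The genes around the cluster gave no reading. Of the 3 protein-coding genes on each side in RefSeq, 5 were on the array (Clmn, Syne3, Glrx5, Bdkrb2 and Bdkrb1), and all 8 of their probes were below background on every array. The nearest of them, Glrx5, a glutaredoxin of iron-sulphur cluster assembly that lies 106 kb away, had -0.416 and -1.23 on the 2-cell NSN arrays and 2.46 in the control. The remaining gene, D430019H16Rik, was not analysed here.

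Of a list of 40 genes of the AKT pathway, which TCL1 proteins act on, 36 were on the array and 3 were above background, each in the control only. 1 of them, Rictor, was called lower and 0 were higher, where 50% of all genes read in the control alone were called lower, so that this count says nothing particular of the list. With limits set at a detection p of 0.05, 4 genes of the list were lower, while the count over all genes rose from 422 to 917. The share of all genes above background that was lower at that limit was not computed, so this count says nothing particular of the list either. Rictor, a subunit of the complex mTORC2 that phosphorylates AKT, had signals of 1.06 and 1.71 on the 2-cell NSN arrays and 62.2 on the control array, a decrease of at least 7.39-fold, read at 1 of its 3 probes. The adaptor gene Ywhaz (0.519 and -0.389 against 11.6 in the control) and the ubiquitin ligase gene Mdm2 (-0.755 and 1.82 against 9.93) did not reach 1.5-fold. Their 2-cell NSN readings were set to the limits, so the size of any decrease is unknown. Mtor, the kinase of both mTOR complexes, had 6.23 and 4.47 on the 2-cell NSN arrays and 5.79 in the control, below the limits. The kinase genes Akt1 and Akt2 were below background as well: Akt1 had -1.85 and -3.35 on the 2-cell NSN arrays and -0.555 in the control, and Akt2 had 1.44 and -0.570 against -0.787. The median log2 difference of the 3 genes above background was -0.46 (-0.40 over all 950 genes above background), a value of Ywhaz that is set by the limits of the 2-cell NSN arrays and carries no information on the list.

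Of 12 genes known for self-renewal of embryonic stem cells, 11 were on the array and 3 were above background, of which 2 were lower and 0 higher in 2-cell NSN embryos. With 44.4% of all genes above background lower and 8.32% higher, 2 of 3 says little about the list. Sall4, a zinc finger factor of pluripotent cells, had signals of 14.1 and 12.3 on the 2-cell NSN arrays and 160 on the control array. Sall4 was 12.2-fold lower at this probe, the brightest of its 3, of which 2 were above background. Dppa4, a chromatin-associated protein of pluripotent cells, had -1.84 and 0.769 on the 2-cell NSN arrays and 29.2 in the control. Dppa4 was at least 3.47-fold lower, read at 1 of its 3 probes. Tbx3, a T-box factor read at 1 of its 3 probes, was above background in the control at 9.21, with 0.560 and -2.46 on the 2-cell NSN arrays. With these readings set to the limits Tbx3 did not reach 1.5-fold, so the size of any decrease is unknown. Pou5f1, which encodes OCT4, was below background, with 2.52 and 1.45 on the 2-cell NSN arrays and 3.45 in the control. The median log2 difference of the 3 genes was -1.79 (-0.40 over all genes above background), which is the bound of Dppa4, set by the limits of the 2-cell NSN arrays, and is no measure of the list. Sall4 was thus the only one of these 11 genes that, like Tcl1, could be read on all 3 arrays.

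Among the egg and early embryo markers, those lower in 2-cell NSN embryos had different sizes of decrease. Bmp15, a growth factor of the oocyte, was at least 12.1-fold lower, with 5.49 and 4.61 on the 2-cell NSN arrays and 102 in the control. Omt2b was at least 11.2-fold lower. Oosp1, an oocyte-secreted protein, was measured on every array and was 3.17-fold lower, with 30.5 and 28.9 on the 2-cell NSN arrays and 94.0 in the control. Ooep, a component of the subcortical maternal complex, was 2.42-fold lower, Gdf9, a partner of Bmp15, at least 2.36-fold and Nlrp5, another component of that complex, at least 1.52-fold. Nlrp5 was read at 1 of its 3 probes. The decrease of Tcl1 (5.01-fold) lay between those of Oosp1 and Bmp15. The other 4 markers above background, Bcl2l10, Dppa3, Tle6 and Zp3, were so in the control only. They did not reach 1.5-fold with the 2-cell NSN readings set to the limits. As 44.4% of all genes above background were lower, 6 of 10 says little about the markers. With normexp and quantile 3 of the markers were lower and 0 higher, where over all genes 248 were lower and 119 higher. Shares of those above background were not computed in that setting, so these counts say nothing particular of the markers.

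By the Euclidean distance of log2(signal + 16) over the 3 arrays, the 5 genes whose readings were closest to those of Tcl1 were Rchy1 (distance 0.42), a ubiquitin ligase gene, the histone gene H2ac24 (0.55), Gemin2 (0.65), a gene of spliceosomal particle assembly, Myh9 (0.80), a nonmuscle myosin heavy chain, and the histone gene H2ac20 (0.97). Rchy1 had 40.5 and 39.7 on the 2-cell NSN arrays and 172 in the control, which is 4.29-fold lower in 2-cell NSN embryos. H2ac24 was 5.34-fold, Gemin2 6.63-fold, Myh9 3.23-fold and H2ac20 6.22-fold lower. A distance over 3 arrays is a description of these readings, and with signals floored at the limits 4 of the 5 genes were again among the closest 5.

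**Figure D4:**
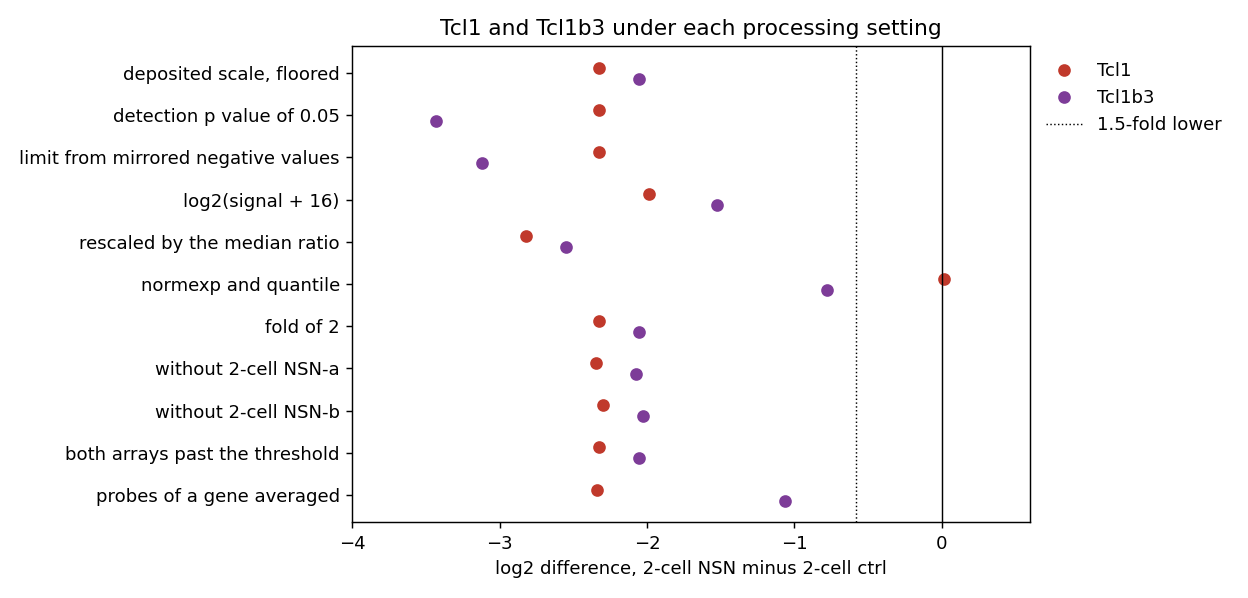
Log2 difference (2-cell NSN minus 2-cell ctrl, x axis) of Tcl1 and Tcl1b3 under the deposited scale and 10 other settings (y axis), with a dotted line at 1.5-fold lower. Tcl1 lies between -2.82 and -1.99 except with normexp and quantile (0.015), and Tcl1b3 lies between -3.43 and -0.78.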

How the data were processed

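Total RNA of 2-cell embryos was amplified in 2 rounds and hybridised by the authors to 3 Illumina mouse-8 BeadChips. Per the methods, background was subtracted and a rank-invariant normalization applied, with thresholds of 0.01 for detection and 1.5 for the fold; BeadStudio 3 is given in the submitters' processing notes. The labels describe only one amplification. The deposited values are intensities on a linear scale, negative under background, with column medians of 0.0443 (NSN-a), 0.0195 (NSN-b) and 0.0916 (2-cell ctrl). The exact scaling between arrays is unknown, and the number of arrays limits the precision. 3 further columns whose names match no sample were not used.

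Background limits were read by pairing deposited signals with detection p values of the study's own array table, of which 1188 rows were held. Within 0.002%, 896 rows had a single matching probe and 292 had none. NSN-b took the limit of NSN-a times the ratio of their spreads under the median.

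Of the 25697 probes, 23978 have 1 gene symbol in the platform annotation and 1719 have none here. A gene was taken at its probe with the highest mean signal. limma 3.58.1 (R 4.3.3) used log2 values and a trend of variance with intensity. Other steps used Python 3.11.15, pandas 2.3.3, numpy 2.4.6, Biopython 1.88 (pairwise alignment of start-site windows) and matplotlib 3.10.9. Both the calling rule and limma were tried on simulated arrays with the same proportional spread and no scaling difference. The simulation therefore says nothing of the scaling or of the unknown spread of the control. Start-site windows and gene positions are from RefSeq (GRCm38.p6).

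The genes named are every family probe, Mtcp1, the 3 protein-coding neighbours on each side, list genes that were called or among the 4 brightest of their list, and the 5 genes closest to Tcl1 (not all of them are printed). Bright probes with a control signal of at least 100 and the ranks were examined after the data were seen. The members and lists were chosen with earlier results of these data known. Alternatives were a detection p value of 0.05, limits from the values under 0 mirrored around 0 (99th percentile), log2(signal + 16), rescaling, normexp (offset 16) with quantile normalization, a fold of 2, each 2-cell NSN array alone, both arrays past the threshold, and averaged probes.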

Additional observations from a re-analysis of the deposited data

How the results depend on the processing

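Tcl1b3 was above background through the control alone, so a call of higher was hardly possible and repeated calls of lower are no separate support. Under all 10 alternatives tried, Tcl1b3 was called lower in 2-cell NSN embryos, with log2 differences of -3.43 to -0.78. Tcl1 was called lower in all of them but normexp with quantile normalization, where its log2 difference was 0.015 (also 0.015 in limma, adjusted p = 0.773) and only 1 family gene was lower. In the other limma settings its adjusted p ran from 6.9e-13 to 0.000820, but with 1 control array and a spread taken from NSN-a and NSN-b alone these values say nothing about how stable the difference between the groups is. No family gene was called higher in any setting. On the deposited scale 8.32% of all genes above background were higher. With 2 or 3 family genes above background, this absence says nothing of the family. Tcl1b4 came above background in the control with limits set at 0.05 or mirrored, which gives 3 family genes above background, and was not called. Over all genes the counts lower and higher (422 and 79) were 917 and 212 with limits set at a detection p of 0.05, 768 and 182 with mirrored limits, and 248 and 119 with normexp and quantile, and the count higher was 29 with log2(signal + 16), 33 after rescaling and 34 at a fold of 2. No paired analysis was possible because the control is 1 array. Genes whose signals lie below the limits have no fold, and for them no difference was detectable with these arrays.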
